A study of Mus musculus with 6 samples.

Results

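Tpi1, Gapdh, Pgk1, Pgam1, Eno1, Pkm, Ldha, Ldhb, Slc16a1 and Slc16a3 encode the steps from triose phosphates to pyruvate, the interconversion of pyruvate and lactate, and the transport of lactate across the plasma membrane. The 10 genes were taken by their names from a table of 54532 genes, in which each name occurred once. Bulk RNA sequencing gave their levels in CD8 T cells, which can kill infected and tumour cells, of mice. The cells were purified from spleen and lymph nodes and stimulated in vitro for 3 days with beads carrying antibodies to CD3 and CD28. There were 3 libraries from wildtype mice (WT) and 3 from mice with knockout of PTPMT1 (KO), a mitochondrial phosphatase needed to make cardiolipin. All 6 libraries shared the tissue, the cell type and the stimulation, and no unstimulated cells were compared. The labels used here give neither the age of the mice, nor the cells in which the gene was deleted, nor whether replicates were separate animals, and a p-value here reflects only variation among these libraries, which may be technical.

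The second part of glycolysis turns triose phosphates into pyruvate, yielding ATP and NADH. Lactate dehydrogenase then uses that NADH to reduce pyruvate to lactate, which restores NAD+ for the GAPDH step. Proton-coupled monocarboxylate transporters carry the lactate out of the cell. T cells that divide after activation are known for making lactate even when oxygen is present.

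Values are FPKM, fragments per kilobase of gene length with a scale for each library, so levels of different genes can be compared, given the lengths used. The scale was not the sum of rebuilt reads, since factors to equal reads ran from 0.894 to 1.26. Factors from the median ratio of genes, each to its geometric mean over the libraries, ran from 0.992 to 1.01. The table as deposited was thus already close to equal on that measure. In bulk RNA, fewer cells of a type and less RNA per cell cannot be told apart. Libraries held 14932604 to 16819913 rebuilt reads. The FPKM of Ptpmt1 was 3.75 to 4.13 in WT and 1.0004 to 1.58 in KO, so the libraries followed their labels. KO replicates 2 and 3 stood apart: 7.53% and 2.38% of their reads came from mitochondrial genes, against 3.38% to 4.76% in the other 4 libraries. KO replicate 3 also had 0 reads of Xist, the RNA of the inactive X chromosome, and 1837 of the Y-linked Ddx3y, whereas the others had at least 3513 and 0. These counts mark KO replicate 3 as male and the others as female, so it came from a different animal than the other KO libraries. The part of sex in its values was not tested. The 8 genes listed for CD8 T cells were Cd8a, Cd8b1 and the general T cell genes Cd3d, Cd3e, Cd3g, Cd247, Trac and Lck. All 8 had a mean of at least 1 FPKM. Their sum was 1595 to 2013 FPKM in WT and 1025 to 1829 in KO, lowest in KO replicate 3. That sum does not measure CD8 T cells alone. The 5 markers of gamma-delta T cells summed to 18.7 to 40.7 FPKM in WT and 18.5 to 115.7 in KO, highest in KO replicate 3. Markers of CD4 T cells, NK cells, B cells, myeloid cells and the erythroid and platelet lineage summed to at most 27.5 FPKM in any library. None of these lists had a gene at 0 throughout. The B cell sums were 18.7 to 25.0 FPKM in WT and 13.4 to 15.1 in KO, without overlap. Sums of the other lists overlapped between the groups.

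The monocarboxylate transporter gene Slc16a1 had about 2-fold more mRNA in KO, Ldha was 1.603-fold higher by group means, and their counterparts Slc16a3 and Ldhb were at 0.844 and 0.861 times the WT mean. Of the enzymes between triose phosphates and pyruvate, Tpi1, Gapdh, Pgk1 and Pgam1 had KO means 1.38 to 1.47 times those of WT, Eno1 1.18 times and Pkm 1.02 times. After adjustment over the 12654 genes tested with limma, 0 of the 10 genes were called at an adjusted p under 0.05, as were 0.0395% of all genes. At a limma unadjusted p under 0.05 there were 4 of the 10, Slc16a1, Pgam1, Gapdh and Ldha, each higher in KO, where 21.8% of all genes had such a p, 11.5% higher and 10.2% lower. The groups did not overlap for 5 of the 10, these 4 and Eno1, all higher in KO, against 27.8% of all genes in either direction, 14.5% higher and 13.3% lower. Of the 10 genes 8 had a log2 fold change above 0, as did 52.4% of all genes. The median log2 fold change of the 10 genes was 0.45 (range -0.20 to 1.03), and that of all genes tested was 0.03. Without KO replicate 3, limma called Ldha and Slc16a1, both higher, in a fit that called 13.7% of all genes and 8.12% as higher, and the median of the 10 was 0.46. Without KO replicate 2, the median was 0.33 and 2 of the 10 had an unadjusted p under 0.05, as did 18.2% of all genes.

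**Figure D1:**
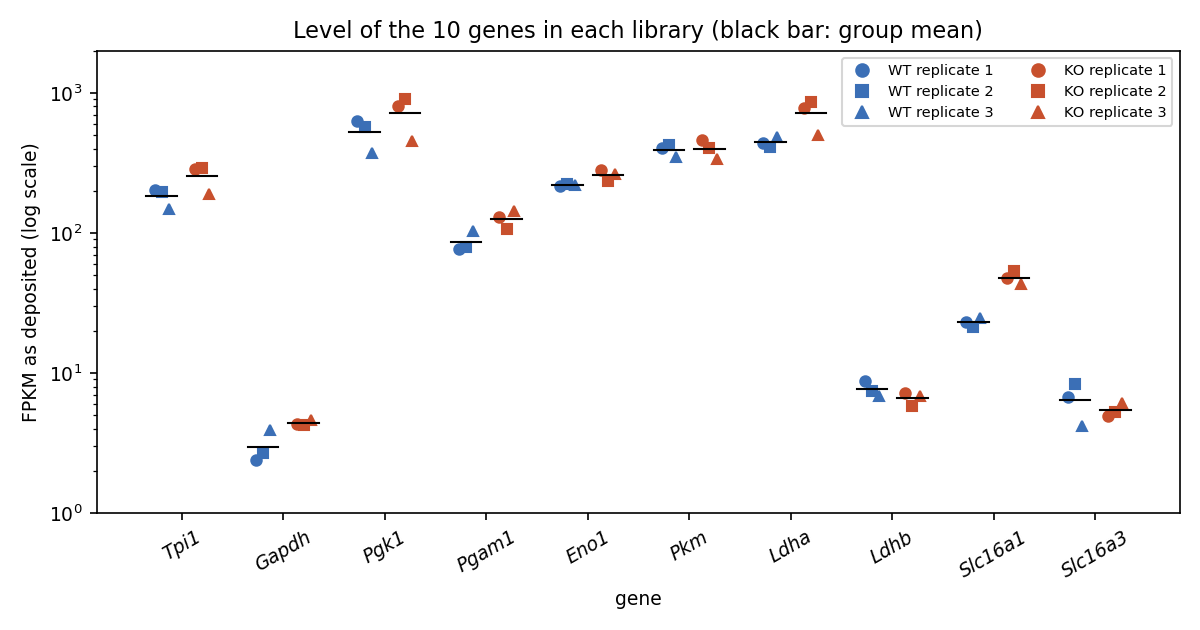
FPKM as deposited (log axis) of the 10 genes in each library, WT in blue and KO in orange, with a symbol for each replicate and a black bar at the group mean. Slc16a1 lies at 21.4 to 24.8 in WT and 43.3 to 53.1 in KO, while Gapdh lies between 2.38 and 4.61 in every library.

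Pgk1 had the highest mean level of the 10, followed by Ldha, Pkm, Eno1, Tpi1, Pgam1, Slc16a1, Ldhb, Slc16a3 and Gapdh. The place of Gapdh is that of its row in the table, whose level is uncertain because rows sharing sequence with it held more reads. This order also depends on the gene lengths used, 2244 bases for Pgk1 and 5001 for Pkm. In reads, Pkm had 26431 to 36507 per library and Pgk1 14749 to 28440. Pgk1 and Eno1 also share much of their sequence with other genes, as given below. By mean FPKM over the 6 libraries Pgk1 ranked 104th among the genes tested, Ldha 112th and Pkm 149th. The ranges of Pgk1 and Ldha overlapped, as did those of Ldha and Pkm, Eno1 and Tpi1, Ldhb and Slc16a3, and Slc16a3 and Gapdh. Pkm was above Eno1, Tpi1 above Pgam1, Pgam1 above Slc16a1, and Slc16a1 above Ldhb with no overlap of their ranges. Reads of the 10 genes made up 0.656% to 0.703% of each WT library and 0.737% to 0.894% of each KO library.

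Triose phosphate isomerase, encoded by Tpi1 (ENSMUSG00000023456, mm10 chromosome 6, 124810586 to 124814296, minus strand), interconverts the 2 triose phosphates made by aldolase. Its FPKM was 202, 196 and 149 in the WT libraries, in order of replicate, and 286, 291 and 189 in those of KO. KO replicate 3 lay below 2 WT libraries, so the groups overlapped, and WT replicate 3 was the lowest of all. The log2 fold change was 0.47 (SE 0.25, 95% interval -0.12 to 1.06, limma adjusted p = 0.314).

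Phosphoglycerate kinase, encoded by Pgk1 (ENSMUSG00000062070, chromosome X, 106187100 to 106203699, plus strand), makes the first ATP of this part of the pathway. Pgk1 had 631, 571 and 374 FPKM in WT and 805, 906 and 457 in KO. Both libraries numbered 3 were low, and the groups overlapped. The log2 fold change was 0.43 (SE 0.35, 95% interval -0.39 to 1.26, limma adjusted p = 0.499), and without KO replicate 3 it was 0.74 (adjusted p = 0.116). Tpi1 and Pgk1 had much the same profile over the 6 libraries: after centring each gene, their log2 values differed by 0.12 on average.

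Phosphoglycerate mutase, encoded by Pgam1 (ENSMUSG00000011752, chromosome 19, 41911923 to 41918660, plus strand), moves the phosphate from carbon 3 to carbon 2 of glycerate. Pgam1 had 76.9, 79.9 and 102.9 FPKM in WT and 129, 106 and 143 in KO. The lowest KO library was just above the highest WT library, WT replicate 3. The log2 fold change was 0.54 (SE 0.20, 95% interval 0.06 to 1.02; limma unadjusted p = 0.0323, adjusted p = 0.191). In contrast to Tpi1 and Pgk1, Pgam1 was highest in each group in replicate 3.

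Enolase 1, encoded by Eno1 (ENSMUSG00000063524, chromosome 4, 150236721 to 150248879, plus strand), makes phosphoenolpyruvate. Eno1 had 216, 223 and 218 FPKM in WT and 282, 234 and 262 in KO. WT libraries were within a narrow band and each KO library was above it, yet the log2 fold change of 0.24 was small beside its error (SE 0.18, 95% interval -0.18 to 0.66, limma adjusted p = 0.468). With each library rescaled to the same FPKM sum it was -0.035.

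Pyruvate kinase M, encoded by Pkm (ENSMUSG00000032294, chromosome 9, 59656368 to 59679375, plus strand), makes pyruvate and ATP. The gene yields the M1 and M2 forms by alternative splicing, which a value per gene does not separate. Pkm had 403, 427 and 347 FPKM in WT and 464, 403 and 335 in KO. These values interleaved, with both libraries numbered 3 lowest in their groups. Its log2 fold change was 0.023 with an SE of 0.22 (limma adjusted p = 0.962), and its 95% interval ran from -0.49 to 0.54. Its sign turned without WT replicate 3 (-0.062), without KO replicate 1 (-0.089) and under equal FPKM sums (-0.25).

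**Figure D2:**
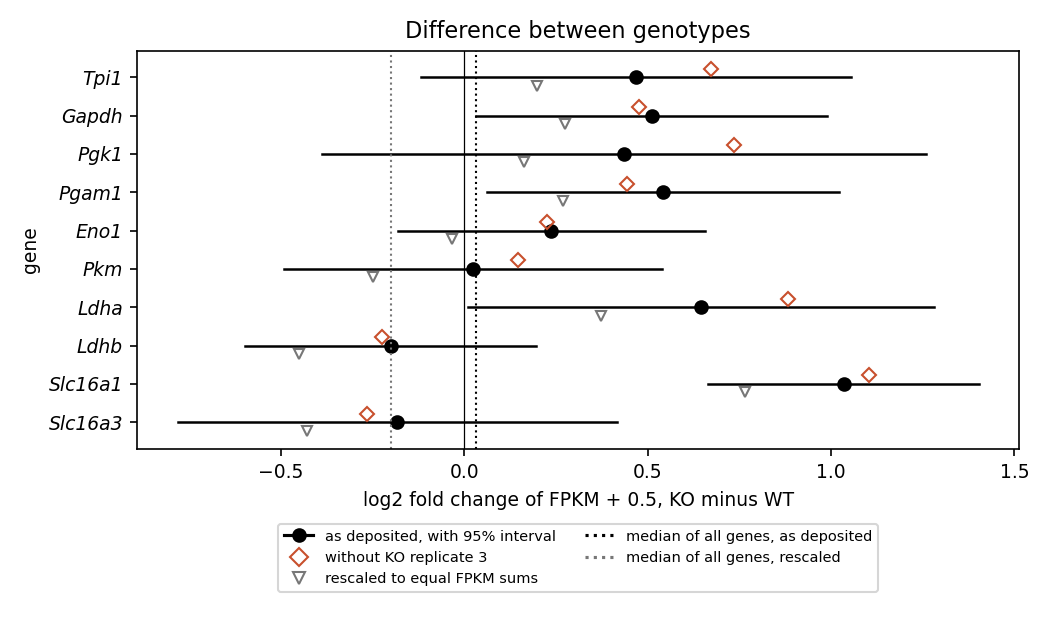
Log2 fold change of FPKM + 0.5, KO minus WT, for the 10 genes (black points with 95% intervals), without KO replicate 3 (orange diamonds) and with libraries rescaled to equal FPKM sums (grey triangles); dotted lines mark the median of all genes tested, 0.03 as deposited and -0.20 rescaled. The interval of Slc16a1, 0.67 to 1.40, lies farthest from 0, and that of Pkm is centred near it.

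Gapdh (ENSMUSG00000057666, chromosome 6, 125161715 to 125166467, minus strand) encodes glyceraldehyde-3-phosphate dehydrogenase, the step that makes NADH, and is commonly used as an abundant reference transcript. In the deposited table it had 2.38, 2.68 and 3.89 FPKM in WT and 4.29, 4.24 and 4.61 in KO, from 161 to 344 reads, whereas Pgk1, the next enzyme, had 14749 to 28440 reads. Every KO library was above every WT library (log2 fold change 0.51, SE 0.20; limma unadjusted p = 0.0396, adjusted p = 0.207). The level of this row is uncertain. In the GENCODE M21 transcripts, 58.4% of the 50-base windows of protein-coding Gapdh transcripts occur exactly in 222 other genes, 213 of them annotated pseudogenes. Of these, 221 had a row in the table and 114 had reads, which together came to 914 to 1437 reads per library, more than the Gapdh row. The processed pseudogene Gm7336 alone had 302 to 524 reads. How reads with several matches were counted is not given in the sources used here, and its part in the low level was not tested.

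With reads of the 58 rows holding at least 10% of its windows added, Gapdh had 1135, 978 and 1068 reads in WT and 1595, 1265 and 1435 in KO, and the log2 fold change was 0.50 (limma adjusted p = 0.154). The other members differed in how much sequence they share. The share of windows found in other genes was 68.0% for Pgk1, 49.5% for Eno1, 41.5% for Pgam1, 23.7% for Pkm, 21.0% for Ldhb, 10.4% for Ldha and 6.83% for Tpi1, and it was 0% for both transporters. Pgk1 thus shares more of its sequence than Gapdh, but with 5 other genes. Pkm also overlaps another gene on its own strand over 15.3% of its exon bases. Across the 82 other pathway genes examined the median share was 0.0620%, against 22.4% for the 10. These copies were examined after the values were seen.

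**Figure D3:**
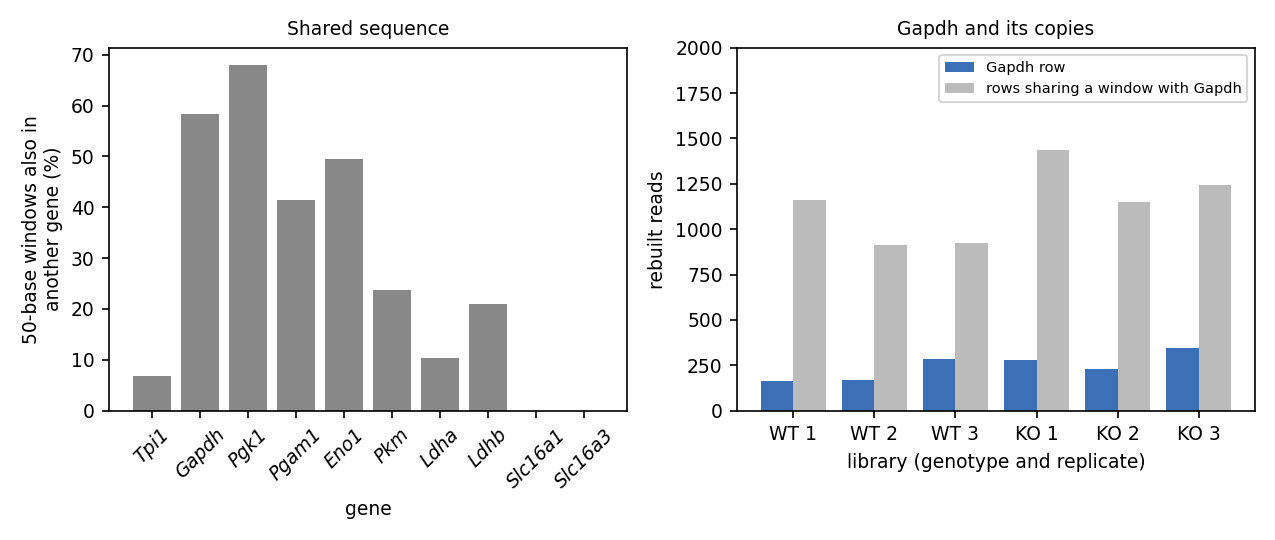
Left, share of each gene's 50-base windows (%) that occur exactly in a transcript of another gene; right, rebuilt reads per library of the Gapdh row (blue) and of all rows sharing a window with it (grey). The Gapdh row holds 161 to 344 reads and all rows sharing a window with it together hold 914 to 1437.

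Ldha (ENSMUSG00000063229, chromosome 7, 46841475 to 46855627, plus strand) encodes the A subunit of lactate dehydrogenase, which is abundant in tissues that make lactate. WT libraries had 437, 413 and 485 FPKM of Ldha, and KO libraries 776, 864 and 501. KO replicates 1 and 2 were far above WT, whereas KO replicate 3 was just above WT replicate 3. The log2 fold change was 0.65 (SE 0.27, 95% interval 0.01 to 1.28; limma unadjusted p = 0.0474, adjusted p = 0.223). Without KO replicate 3 it was 0.88 (limma adjusted p = 0.0375), and without KO replicate 2 it was 0.49 (limma adjusted p = 0.366). With any library other than KO replicate 3 left out, or with median-ratio scaling, the limma unadjusted p of Ldha was not under 0.05.

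Ldhb (ENSMUSG00000030246, chromosome 6, 142490249 to 142507957, minus strand) encodes the B subunit, which predominates in tissues that oxidise lactate, such as heart. It was far lower than Ldha, with 8.75, 7.47 and 6.82 FPKM in WT and 7.24, 5.78 and 6.81 in KO. The groups overlapped (log2 fold change -0.20, SE 0.17, 95% interval -0.60 to 0.20, limma adjusted p = 0.513). The counts behind it were 119 to 225 reads per library. Because both subunits were measured per length in the same library, their ratio does not depend on the scaling of the library. Ldhb made up 1.96%, 1.78% and 1.39% of the summed FPKM of Ldha and Ldhb in the WT libraries, and 0.925%, 0.664% and 1.34% in the KO libraries. The means were 1.71% ± 0.293 and 0.977% ± 0.342 (SD, n = 3 each), and every KO value was below every WT value, by a narrow margin between the libraries numbered 3. With 3 libraries against 3, no 2-sided exact permutation test can go below the p = 0.1 found here.

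Slc16a1 (ENSMUSG00000032902, chromosome 3, 104638668 to 104658462, plus strand) encodes MCT1, a transporter of lactate, pyruvate and ketone bodies. WT libraries had 23.2, 21.4 and 24.8 FPKM of Slc16a1, and KO libraries 47.5, 53.1 and 43.3. Each KO library was well above each WT library, and the libraries within a group lay close together. The means were 23.1 ± 1.66 and 47.9 ± 4.89 FPKM (SD, n = 3 each), a 2.07-fold difference. The log2 fold change was 1.03 (SE 0.16, 95% interval 0.67 to 1.40; limma unadjusted p = 0.000298), and 3.4% of all genes tested had a log2 fold change at least as high. Its adjusted p of 0.0884 missed the threshold and was 0.0344 without KO replicate 3 (log2 fold change 1.10) and 0.179 without KO replicate 2 (0.96). None of its windows was found in another gene.

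Slc16a3 (ENSMUSG00000025161, chromosome 11, 120948480 to 120960868, plus strand) encodes MCT4, a lactate exporter typical of strongly glycolytic cells. It had 6.68, 8.36 and 4.198 FPKM in WT and 4.91, 5.23 and 6.10 in KO. The KO values lay within the WT range (log2 fold change -0.18, SE 0.25, 95% interval -0.78 to 0.42, limma adjusted p = 0.707), and without WT replicate 2 the log2 fold change was 0.020. Of the summed FPKM of both transporters, Slc16a3 took 22.4%, 28.1% and 14.5% in the WT libraries, and 9.37%, 8.97% and 12.3% in the KO libraries. The means were 21.7% ± 6.81 and 10.2% ± 1.84 (SD, n = 3 each). As for the dehydrogenase, the shares did not overlap between the groups and the libraries numbered 3 lay closest to each other (exact 2-sided permutation p = 0.1, the smallest possible here).

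**Figure D4:**
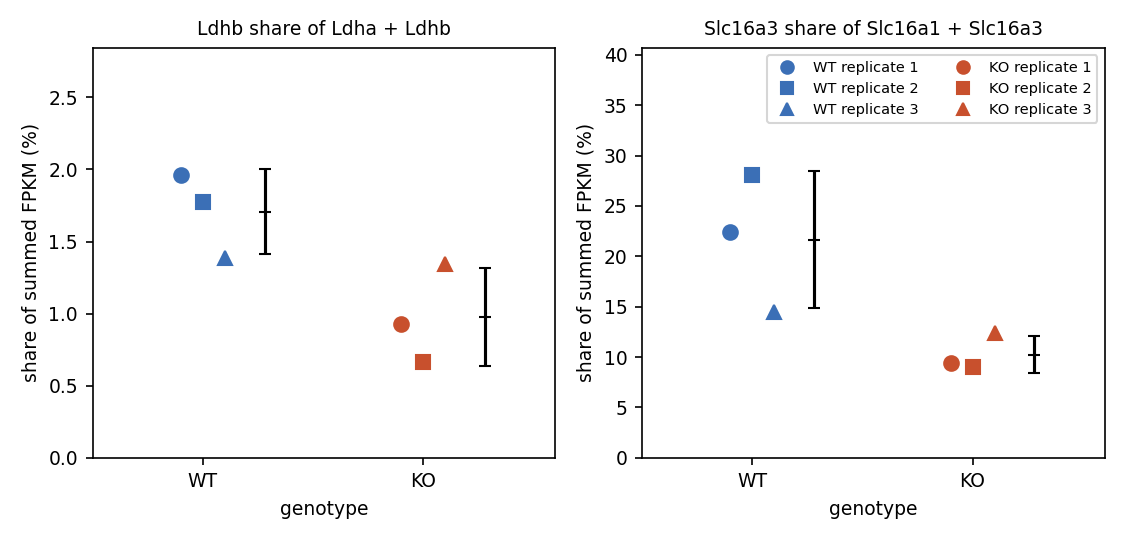
Share (%) of Ldhb in the summed FPKM of Ldha and Ldhb (left) and of Slc16a3 in that of Slc16a1 and Slc16a3 (right) in each library, with group mean ± SD in black. Every KO value lies below every WT value, with replicate 3 of each group closest together at 1.39% and 1.34%, and at 14.5% and 12.3%.

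The bases before the start sites of Ldha, Slc16a1 and Slc16a3 are shown because Ldha and Slc16a1 had the largest differences of the 10 and Slc16a3 is the counterpart that overlapped between groups. Each run is the 250 bases before a RefSeq start site on GRCm38.p6, plus strand, 5′ to 3′. Capitals mark CACGTG, the E-box that MYC and its partner MAX can bind, and ACGTG or GCGTG, the core of the element bound by the hypoxia-inducible factor HIF1, on either strand. CACGTG contains ACGTG on both strands. The windows are chr7:46845554-46845803 for Ldha, chr3:104638414-104638663 for Slc16a1 and chr11:120948817-120949066 for Slc16a3.
Ldha: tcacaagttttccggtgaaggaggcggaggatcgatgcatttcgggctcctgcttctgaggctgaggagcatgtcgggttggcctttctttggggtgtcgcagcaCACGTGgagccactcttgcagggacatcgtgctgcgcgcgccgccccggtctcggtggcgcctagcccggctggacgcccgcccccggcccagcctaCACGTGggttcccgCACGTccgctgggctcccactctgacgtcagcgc
Slc16a1: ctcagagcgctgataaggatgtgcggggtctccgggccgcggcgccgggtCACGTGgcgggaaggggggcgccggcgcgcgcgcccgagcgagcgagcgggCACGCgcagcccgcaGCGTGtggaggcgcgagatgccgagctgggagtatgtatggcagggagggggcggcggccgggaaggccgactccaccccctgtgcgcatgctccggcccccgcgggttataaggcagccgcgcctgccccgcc
Slc16a3: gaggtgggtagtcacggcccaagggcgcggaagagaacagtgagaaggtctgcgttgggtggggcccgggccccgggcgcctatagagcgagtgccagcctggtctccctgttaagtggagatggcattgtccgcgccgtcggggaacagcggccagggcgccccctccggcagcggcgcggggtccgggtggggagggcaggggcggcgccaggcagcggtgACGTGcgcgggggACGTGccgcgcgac
The E-box letters begin at -145 and -48 from this Ldha start and at -200 from that of Slc16a1. The 10 genes had 14 such windows in the table, and 2 of these held CACGTG, 1 of Ldha and 1 of Slc16a1, as do 6.02% of all 32851 windows. ACGTG stood in 6 of the 14 windows, 1 of Slc16a3 and 1 of Pkm among them, and in 16.6% of all windows. GCGTG stood in 8 of the 14 and in 28.2% of all windows. Windows of Eno1 overlap, so the same GCGTG sites were counted more than once. By gene, with any start counted, GCGTG stood in 6 of the 10 and in 30.9% of all genes. A second Ldha start site, farther downstream, had neither CACGTG nor ACGTG. Letter matches describe the sequence and do not show that a factor binds there.

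Other isoforms of these steps were mostly scarce. Of 17 genes listed as isoforms or partners, 8 passed the minimum of 0.5 FPKM on average, and 9 did not, among them Pgk2, Ldhc and Ldhal6b, which were listed at 0 in each library. The median log2 fold change of the 8 was 0.13. At the limma unadjusted threshold 1 of the 8 was higher and 0 lower, against 11.5% and 10.2% of all genes. That 1 was Pgam5, a mitochondrial phosphatase of the mutase family rather than a glycolytic enzyme, at 6.15 ± 0.965 FPKM in WT libraries against 9.02 ± 0.692 in those of KO (SD, n = 3 each; limma adjusted p = 0.153). Pgam5 overlaps another gene on the opposite strand over 58.1% of its exon bases, so its reads are uncertain. Bsg, the chaperone that brings MCT1 and MCT4 to the cell surface, had 109.9, 122 and 90.5 FPKM in WT and 111, 109 and 111 in KO (log2 fold change 0.04, SE 0.18). Emb, a related chaperone, had 58.4, 54.8 and 33.5 FPKM in WT and 47.6, 67.3 and 24.3 in KO, lowest in both libraries numbered 3. Eno3, the muscle enolase, had 15.5, 18.9 and 38.7 FPKM in WT and 33.5, 47.3 and 20.3 in KO, without separation of the groups.

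In the list of glucose entry and upper glycolysis, 18 of 21 genes were tested and 0 were called by limma. At the unadjusted threshold 1 was higher and 3 were lower in KO, against 11.5% and 10.2% of all genes. The median log2 fold change of the 18 was -0.08. Hexokinase 2, encoded by Hk2, had 2.38, 3.02 and 4.45 FPKM in WT and 6.18, 4.28 and 14.5 in KO, where KO replicate 3 was the highest and KO replicate 2 lay below WT replicate 3 (log2 fold change 1.09, SE 0.43; limma adjusted p = 0.209). The glucose transporter gene Slc2a3 had 12.8, 15.2 and 7.47 FPKM in WT and 6.16, 5.45 and 7.24 in KO. Gpi1, the glucose-6-phosphate isomerase, had 85.1, 102.9 and 76.0 FPKM in WT and 62.9, 53.3 and 72.7 in KO. For both, every KO value was below every WT value (log2 fold changes -0.81 and -0.48; limma adjusted p = 0.162 and 0.222). The aldolase gene Aldoc was low, at 5.49 ± 3.49 and 1.63 ± 1.12 FPKM (SD, n = 3 each; log2 fold change -1.44, limma adjusted p = 0.211), and its groups overlapped. Aldoa, the main aldolase here, had 249 ± 44.6 and 283 ± 13.7 FPKM in WT and KO, and Pfkp, a phosphofructokinase, had 18.5 ± 0.956 and 16.6 ± 3.65 (SD, n = 3 each; limma adjusted p = 0.604 and 0.643).

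**Figure D5:**
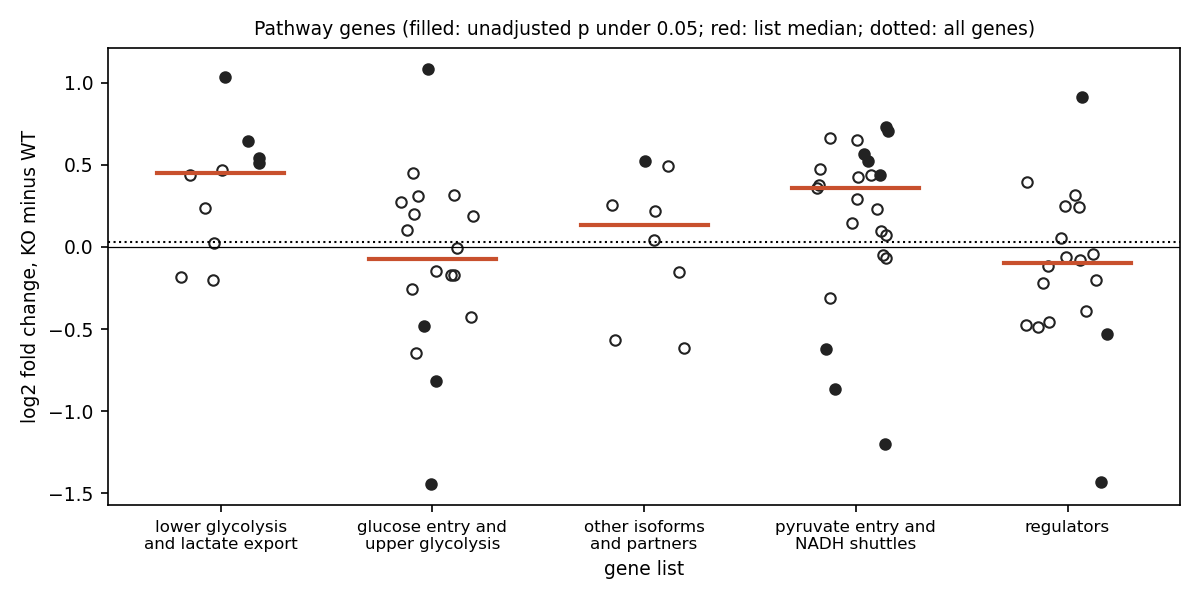
Log2 fold change, KO minus WT, of each tested gene in the 10 and in 4 other lists of the pathway; filled points have a limma unadjusted p under 0.05, red bars are list medians and the dotted line is the median of all genes. The medians are 0.45, -0.08, 0.13, 0.36 and -0.10 from left to right.

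Pyruvate that does not become lactate enters mitochondria. Of 25 genes of pyruvate entry and of the shuttles that carry NADH electrons, 23 were tested and 0 were called. The median log2 fold change of the 23 was 0.36. At the limma unadjusted threshold 5 were higher and 3 lower, against 11.5% and 10.2% of all genes. The 3 that were lower were Pdk1 and Pdk2, kinases that inhibit pyruvate dehydrogenase, and Pdpr, a regulatory subunit of its phosphatase. Other genes of the same control were above 0 without such a p, with log2 fold changes of 0.29 for the kinase gene Pdk3 and 0.65 and 0.23 for the phosphatase genes Pdp1 and Pdp2, which lie outside the naming rule. Pdk1 had 56.3, 63.4 and 38.2 FPKM in WT and 30.9, 37.0 and 19.3 in KO, and Pdk2 had 4.07, 4.04 and 2.84 in WT and 1.87, 1.04 and 1.07 in KO. Neither overlapped between groups (log2 fold changes -0.86 and -1.20; limma adjusted p = 0.170 and 0.0970). Pdpr had 7.62, 7.17 and 7.17 FPKM in WT and 3.89, 3.47 and 7.04 in KO, with KO replicate 3 near WT. Among those higher were Dlat, Dld and Pdhx, which encode parts of the pyruvate dehydrogenase complex. Their log2 fold changes were 0.53, 0.73 and 0.57 (limma adjusted p = 0.180, 0.225 and 0.222). Dld overlapped between groups, and Pdhx had 5.27 FPKM in KO replicate 3 against 5.25 in WT replicate 3. Also higher were Mdh2, the mitochondrial malate dehydrogenase (log2 fold change 0.44), and Slc25a13, an aspartate-glutamate carrier of the malate-aspartate shuttle (0.71, SE 0.17, limma adjusted p = 0.111). Pdha1, a catalytic subunit gene of the complex, had a log2 fold change of 0.15, and Mdh1, of cytosolic malate dehydrogenase, had 0.44, with 446.6 FPKM in KO replicate 2 and 88.4 in KO replicate 3. Without KO replicate 3, limma called 4 of the 23 higher (Dld and Pdhx among them) and 2 lower (Pdk2 and Pdpr). That fit called 13.7% of all genes, 8.12% as higher.

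Among 18 tested regulators of the pathway 0 were called, and the median log2 fold change was -0.10. At the limma unadjusted threshold 1 was higher and 2 were lower, against 11.5% and 10.2% of all genes. Txnip, an inhibitor of glucose uptake whose gene responds to glucose, had 143.8, 156 and 106 FPKM in WT and 47.9, 60.5 and 40.9 in KO, with no overlap (log2 fold change -1.43, SE 0.23; limma adjusted p = 0.0884, and 0.0344 without KO replicate 3). Mxi1, a MAX partner that opposes MYC, had 5.64, 5.53 and 3.54 FPKM in WT and 3.47, 2.81 and 3.27 in KO. Srsf3, a splicing factor that acts on Pkm, had 73.9, 61.5 and 72.2 FPKM in WT and 137, 219 and 73.2 in KO, so that KO replicate 3 was at the WT level (log2 fold change 0.91, SE 0.38; limma adjusted p = 0.225). The splicing factors Hnrnpa1 and Hnrnpa2b1 had log2 fold changes of 0.32 and 0.39 (limma adjusted p = 0.350 and 0.311). Hif1a and Myc, named for their role rather than by the naming rule, had 35.7 to 42.1 and 26.9 to 41.6 FPKM in WT and 41.8 to 49.3 and 25.7 to 57.8 in KO, and both overlapped between groups.

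The profiles of the members over the 6 libraries differed from each other. Gapdh and Pgam1 were the most alike, with a mean absolute difference of 0.10 between centred log2 values, and Ldhb and Slc16a1 the least, at 0.62. Among 4729 other genes with a mean of at least 10 FPKM, those nearest to Ldha were the predicted gene Gm8394 (0.03), Cul1, a ubiquitin ligase scaffold (0.03), and Gemin2, of the SMN complex (0.04). Nearest to Slc16a1 were Gtpbp4, a GTPase of ribosome assembly (0.05), Ppat, the first enzyme of purine synthesis (0.06), and Denr, a translation factor (0.07). Pgam1 was nearest to G3bp1, Nup62 and Kpnb1 (0.02 to 0.04), and Gapdh to Mtap, Mif and Dhps (0.04 to 0.05). The Gapdh profile is that of its row, of 161 to 344 reads, whose level is uncertain. With 6 libraries many genes can share a profile, and these distances carry no test.

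The FPKM sums differed between libraries, and the differences depend on how they are treated. With each library rescaled to the same FPKM sum, all genes had a median log2 fold change of -0.20, with 34.3% of them above 0, and the 10 genes one of 0.18, with 6 of them above 0. Relative to that shift, Slc16a1 was higher by 0.97, Ldha by 0.57, Gapdh by 0.48, Pgam1 by 0.47, Tpi1 by 0.40, Pgk1 by 0.36 and Eno1 by 0.17 on the log2 scale, while Pkm, Slc16a3 and Ldhb stood at -0.05, -0.23 and -0.25. Of genes with a limma unadjusted p under 0.05, 52.9% were higher in KO as deposited and 22.9% after this rescaling. Slc16a1 was then the 1 member with such a p (limma adjusted p = 0.175). With libraries scaled by the median ratio of genes instead, all genes had a median log2 fold change of 0.02 and the 10 genes one of 0.44. Gapdh, Pgam1 and Slc16a1 had a limma unadjusted p under 0.05 in that fit, as did 21.9% of all genes, and Ldha did not.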

How the data were processed

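The deposited table gives FPKM values for 6 libraries, made by the authors from fragments scaled to gene length and by library. The library scale was close to that of the median ratio of genes rather than to summed reads. The tools named, with no role stated, are featureCounts 1.5.0-p3, HISAT2 2.0.5, DESeq2 and Trim Galore, on the build mm10, per the submitters' processing notes. Per the labels' protocols, a stranded mRNA kit was used. Not given in the sources used here are the annotation, the strand setting and how reads with several matches were counted.

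FPKM times length fell on whole multiples of 1 step (tolerance 0.05) for nearly all values above 0, which gave whole reads. Genes with a mean of at least 0.5 FPKM were tested as log2(FPKM + 0.5) with limma 3.58.1 in R 4.3.3 (mean-variance trend, genotype as the only term, 2-sided, Benjamini-Hochberg over 12654 genes, calls at 0.05). Fold changes on this scale understate changes of low genes. The fit was also run on simulated data. These reads were drawn independently for each gene and library, which the real libraries need not follow, so that run is not used as support here. Shares were compared by exact permutation tests with scipy 1.17.1, and tables and plots used Python 3.11.15, pandas 2.3.3 and matplotlib 3.10.9. Of 2 rows named Aldoa, the higher was used. Gene coordinates and transcripts are GENCODE M21 (mm10), and start sites and promoter sequences are RefSeq's for GRCm38.p6, in which all 10 genes matched by symbol.

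The 10 genes, the gene lists and the tests were chosen with earlier results of these data known. From each other list the 3 genes of highest mean FPKM and those with an unadjusted p under 0.05 were named, and for each of the 10 with such a p, the 3 genes nearest in profile. Alternatives covered the pseudocount, filter, scaling, voom on rebuilt reads, array weights, a replicate block, each library left out and copies added to the members.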

Additional observations from a re-analysis of the deposited data

How the results depend on the processing

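With 3 libraries per group the intervals are wide, and Slc16a1 is the member whose direction and unadjusted p under 0.05 held in all 18 alternatives (log2 fold change 0.77 to 1.10). The count of 5 called genes was 3 with a pseudocount of 1 and with no filter, 1 with limma-voom and 12 with the replicate block. It was 7200 with array weights and 6710 with weights estimated gene by gene, which was added after the data were seen, and 2 to 1733 over the libraries left out in turn, the highest without KO replicate 3. The array weight estimate stopped before it converged and gave KO replicate 1 a weight of 36.4, against 0.154 to 1.51 for the others. Both weightings called 8 members (7 higher, and Slc16a3 lower), leaving Pkm and Ldhb.

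The count of 4 members with an unadjusted p under 0.05 was 2 with no filter, 1 under equal FPKM sums and 2 under equal rebuilt reads, where 13.4%, 16.7% and 18.4% of all genes had such a p. It was 8 with array weights and with gene-by-gene weights (62.2% and 59.2% of all genes). It was 3 with median-ratio scaling (21.9%) and with the replicate block (23.1%), and 1 to 4 over the libraries left out (10.6% to 35.0%). The median of the 10 was 0.18 under equal FPKM sums, 0.30 under equal rebuilt reads and 0.44 with median-ratio scaling. It was 0.28 to 0.47 over the libraries left out, lowest without WT replicate 3. Pkm turned to -0.25 under equal FPKM sums, -0.13 under equal rebuilt reads, -0.062 without WT replicate 3 and -0.089 without KO replicate 1, against 0.15 without KO replicate 3 and at most 0.19 in any alternative (array weights). Eno1 turned to -0.035 under equal FPKM sums, and Slc16a3 to 0.020 without WT replicate 2, against -0.44 without WT replicate 3. Apart from scaling, the causes were not tested. The other 7 members kept their direction in these alternatives. Deviations of same-numbered libraries correlated at 0.13, 0.07 and 0.33 across genes. WT replicates 1 and 2 correlated best with KO replicates 2 and 1. The value of the libraries numbered 3 was the highest of all pairs, and WT replicate 3 had -0.18 and -0.27 with KO replicates 1 and 2. With 3 libraries per group these values cannot show whether replicate numbers pair the libraries. Both isoform shares kept their direction in every alternative, where the smallest exact p allowed was 0.1 or higher.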

Other observations

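Slc2a6, a hexose transporter of lysosomes, stood out in the lists by its pattern rather than by genotype, and was chosen after its values were seen. WT libraries had 1.81, 1.93 and 11.9 FPKM, in order of replicate, and KO libraries 2.41, 1.99 and 17.7. Epas1, which encodes HIF2 alpha, showed the same split, with 0.196, 0.307 and 4.53 FPKM in WT and 0.179, 0.344 and 3.35 in KO. Both libraries numbered 3 also had the highest summed gamma-delta T cell markers, 40.7 and 115.7 FPKM against 18.5 to 33.6 in the other 4, and the lowest Pgk1, Tpi1 and Emb of their groups. The part of other cells in these values was not tested.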
